A study of Mus musculus with 5 samples.

Results

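The genes described here encode subunits of the mitochondrial respiratory chain and of ATP synthase. They were chosen by symbol, as every gene whose name starts with Nduf, Sdh followed by a to d, Uqcr, Cox followed by a digit from 4 to 8, or Atp5, together with Cyc1 and Cycs. On the array 75 of 8251 named genes met this rule, and each was represented by the probe set with the highest mean over the 5 arrays. They comprised 29 genes of complex I, 4 of complex II, 8 of complex III, cytochrome c, 15 of complex IV, 14 of complex V and 4 assembly factors whose symbols share these prefixes. A further 27 protein-coding genes of the mouse gene table that fit the rule had no probe set naming them alone and were not analysed here. Subunits encoded by mitochondrial DNA were also not analysed here.

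RNA came from CD8 T lymphocytes of C57BL/6 mice aged 6 to 8 weeks that carry the OT-1 TCR transgene, and 1 array was hybridised per sample. The CD44lo CD8+ cells had been enriched by negative selection from lymph nodes and stimulated in culture with peptide bound to H-2Kb and with the costimulatory protein B7-1, both on latex microspheres, and every culture contained human rIL-2. Murine IL-21, a cytokine given as a further signal to the T cell, was present in 1 sample taken at 72 h and in 2 samples taken at 48 h, and was absent from 2 samples taken at 48 h. The titles call these samples biological replicates without saying whether cultures or mice were separate. Each p-value thus speaks only of the spread between replicates at 48 h, which may be technical. The model draws this spread towards that of other probe sets, and the 1 sample at 72 h adds nothing to it. All groups share the transgene, antigen, B7-1 and IL-2, and no unstimulated sample or 72 h sample without IL-21 was analysed here, so time and longer exposure to IL-21 cannot be told apart.

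The respiratory chain passes electrons from NADH through complex I, or from succinate through complex II, to ubiquinone, then through complex III and cytochrome c to complex IV, where oxygen is reduced. Complexes I, III and IV pump protons across the inner membrane, and ATP synthase, also called complex V, uses the resulting gradient to make ATP. Activated T cells enlarge their mitochondria while they also raise glycolysis, and the capacity for respiration is a known feature of long-lived CD8 T cells.

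Before scaling, the trimmed mean signal was 66.4 for the 72 h array, 106 for each 48 h array with IL-21, and 75.9 and 65.8 for the 48 h arrays without IL-21. Values below are signals after quantile normalisation, so every difference is relative to the bulk of probe sets on the same arrays, and changes common to all transcripts are not seen. All 9 measured CD8 T cell markers passed the filter on low signal, with a summed signal of 8873 at 72 h, 6092 and 6763 at 48 h with IL-21, and 5888 and 6169 at 48 h without IL-21. Of 16 measured myeloid markers 11 passed, with Lyz2, Adgre1 and H2-Aa among those below the filter. Sums here and below are over all measured markers of a list, also those below the filter. The myeloid sums were 523 at 72 h, 331 to 496 at 48 h with IL-21 and 435 to 492 at 48 h without it. Of 8 measured B cell markers 6 passed, with sums of 1235 at 72 h, 588 and 737 at 48 h with IL-21, and 494 and 771 without it. Most of this signal was Ighm, with 868 at 72 h, 560 and 400 at 48 h with IL-21, and 560 and 295 without it. Cd37 had 254 at 72 h, and no other B cell marker exceeded 39 on any array. CD4 and regulatory T cell markers (2 of 4 kept, sums of 28.6 to 69.1) and NK cell markers (0 of 3 kept, 3.69 to 15.2) were dim. Erythroid, platelet and stromal markers (5 of 8 kept) had sums of 232 to 346. The brightest of them was Col1a2, with 213 at 72 h, 204 and 155 at 48 h with IL-21, and 195 and 146 without it.

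Of the 75 genes, 68 passed the filter. The 7 that did not were Ndufa12, Ndufs4, Cox5a, Cox6a2, Cox7a1, Cox8a and Atp5j2, and none of them exceeded a signal of 17.3 on any array. Cox6a2 and Cox7a1 are the muscle isoforms of their subunits. Ndufs4, Cox5a and Cox8a encode subunits of widespread expression, and whether their low signal is a property of the probe sets was not tested. For 12 of the 68 genes the probe set was of the family type, which can take up transcripts of related genes. The samples are bulk RNA, in which fewer cells of a type and less RNA per cell cannot be told apart.

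The first comparison asked what IL-21 did to these genes at 48 h of stimulation. No subunit gene passed the test in either direction, in any complex. The median log2 difference of the 68 genes, with IL-21 against without, was -0.06, beside -0.01 over all 7453 probe sets tested, and 65 of the 68 differences lay within 0.5 of 0, which 89.4% of all probe sets and 96.1% of those as bright as the 25th percentile of the members or brighter also did. The percentage of all probe sets that passed was 0 as well, with 0 higher and 0 lower. The smallest adjusted p in limma was 0.967 among the members and 0.465 over all probe sets. At an unadjusted p under 0.05 there were 3 members, 1 higher and 2 lower, while 2.55% and 1.84% of all probe sets were higher and lower at that level. The arrays with IL-21 lay above both arrays without it for 12 members and below both for 18, while 15.9% and 17.9% of all probe sets did so.

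In complex I, which takes electrons from NADH, the 27 genes kept had a median difference of -0.06 and a range from -0.58 to 0.51 at 48 h. Ndufs3, a core subunit of the arm that projects into the matrix, had signals of 423 and 391 with IL-21, against 550 and 517 without it. Its log2 difference was -0.39 (SE 0.13, adjusted p = 0.967). Ndufb8, an accessory subunit of the membrane arm, had 531 and 506 with IL-21, against 625 and 655 without it, a difference of -0.30 (SE 0.12). Both genes were lower on each array with IL-21 than on either array without it, and neither passed the test.

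In complex II, the succinate dehydrogenase that links the citrate cycle to the chain, all 4 differences were small and negative at 48 h. They were -0.15 (SE 0.19) for the flavoprotein subunit Sdha, -0.07 (SE 0.11) for the iron-sulfur subunit Sdhb, -0.02 (SE 0.15) for Sdhc and -0.06 (SE 0.14) for Sdhd, the last pair being the membrane anchors. Each of these differences was smaller than its standard error. In complex III the median was -0.04, with 4 positive and 4 negative differences. Uqcrc2, a core protein of the complex, differed by 0.24 (SE 0.14) and Cyc1, the haem protein cytochrome c1, by 0.18 (SE 0.10). Cycs, the mobile carrier between complexes III and IV, differed by -0.16 (SE 0.19).

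No gene of complex IV, cytochrome c oxidase, passed with IL-21 at 48 h, and the median difference was -0.13, which became 0.04 without the second array with IL-21. Cox7a2l, which joins complexes III and IV in supercomplexes and of which C57BL/6 mice carry a shortened allele, had 332 and 352 with IL-21, against 432 and 394 without it, a difference of -0.27 (SE 0.13). Cox8b, the heart and skeletal muscle isoform of subunit VIII, differed by 0.30 (SE 0.22) and the testis isoform Cox8c by 0.14 (SE 0.31). The remaining isoforms differed by 0.05 (Cox6a1), -0.13 (Cox7a2), -0.22 (Cox4i1), -0.24 (Cox6b1) and -0.26 (Cox6b2), and none of these passed the test. Cox4i1 was read by a dim family-type probe set, and its second probe set differed by 0.45 and did not pass either.

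ATP synthase had a median difference of 0.01 over 13 genes at 48 h. Atp5md, a small membrane subunit also called DAPIT, had the highest difference of any member at 0.63 (SE 0.25, adjusted p = 0.967), from a family-type probe set. Its signals were 1005 and 1730 with IL-21, against 906 and 803 without it, so most of the difference came from the second array with IL-21. Atp5mpl, another small membrane subunit, differed by 0.21 (SE 0.13). Atp5g1 and Atp5g2, which encode the same mature subunit c of the proton-driven ring behind different import sequences, differed by -0.18 (SE 0.30) and -0.10 (SE 0.17). Atp5g1 was dim, and its second probe set differed by 0.25. Among the assembly factors Ndufaf1, needed to build complex I, differed by 0.31 (SE 0.19) and Sdhaf1, which serves complex II, by 0.08 (SE 0.20).

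**Figure D1:**
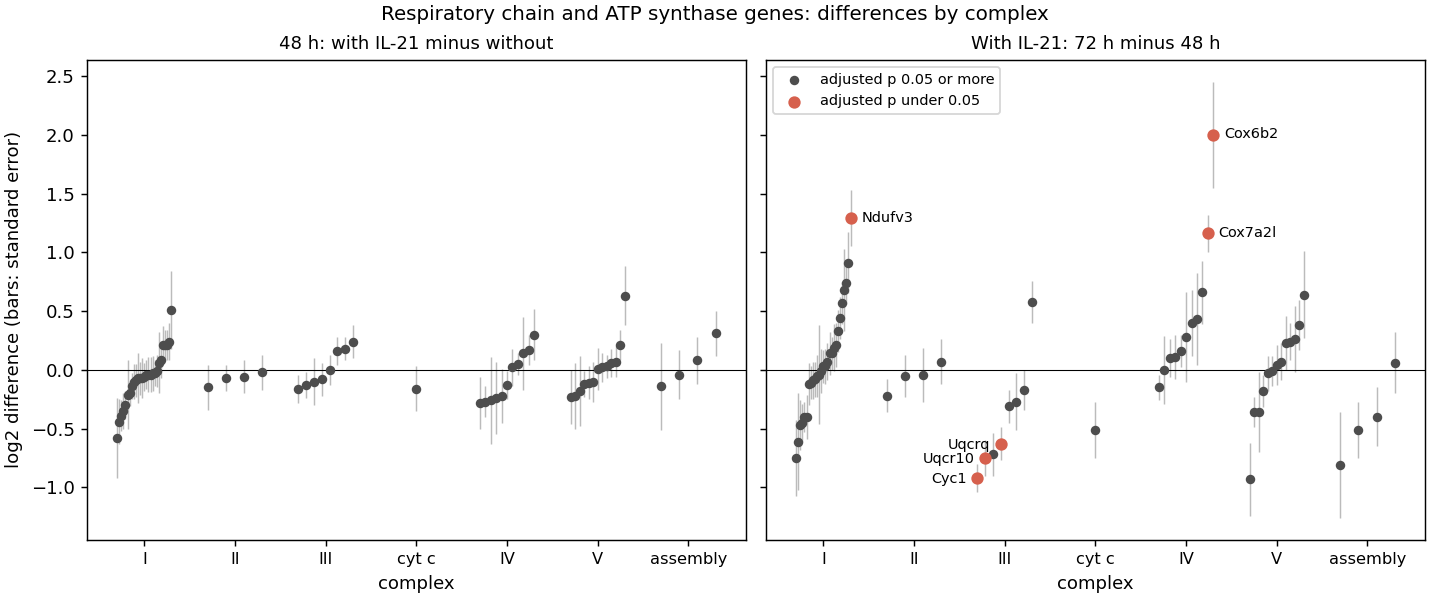
Log2 difference of each of the 68 genes kept, by complex, for IL-21 against none at 48 h and for 72 h against 48 h with IL-21. Points are genes and bars are standard errors. Larger, coloured and named points passed the limma test at an adjusted p under 0.05. At 72 h the complex III genes sit lower, with a median of -0.47. At 48 h the medians, which are not drawn, lie between -0.16 and 0.02 and no gene passed.

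The other comparison set the 72 h array with IL-21 against the 48 h arrays with IL-21. The genes that passed were divided between the directions and among complexes I, III and IV. Cyc1, Uqcr10 and Uqcrq of complex III fell, while Cox7a2l and Cox6b2 of complex IV and Ndufv3 of complex I rose, and no gene of complex II or complex V passed the test. The 6 members that passed are 8.82% of the 68, beside 11.2% of all probe sets tested. By direction, 3 members rose and 3 fell, 4.41% each, against 4.04% and 7.12% of all probe sets, and against 6.74% and 13.5% of probe sets above that brightness. The share of members called was thus near or below the background. The median difference was 0.00, with 33 positive and 35 negative, and 48 of 68 (70.6%) lay within 0.5 of 0, against 57.6% of all probe sets and 56.1% of the equally bright ones. The 72 h array lay above all 4 arrays of 48 h for 20 members and below all of them for 24, while 30.4% and 33.8% of all probe sets did so.

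These calls rest on a single 72 h array. Without either of the 48 h IL-21 arrays, 0 members and 0 of 7453 probe sets passed in limma, and at an unadjusted p under 0.05 there were 14 members (20.6%) without the first and 13 (19.1%) without the second, against 22.9% and 23.5% of all probe sets. Without a trend in the variance no member passed, the smallest adjusted p over all probe sets being 0.0525. Scaling also mattered. With arrays centred on their medians only Cox6b2 and Cyc1 passed, with scaling on the hybridisation controls only the 3 genes that were higher, and with the deposited values, in which the whole 72 h array is dimmer, 1 member rose and 31 fell. This comparison shares the 48 h IL-21 arrays with the first, so a gene that is high on those arrays tends to have a positive difference in the first and a negative one in the second. Of the cell type markers, the T cell genes Cd3g, Cd3d and Thy1 and the B cell and antigen presentation genes Cd37 and H2-Ab1 also rose at 72 h, 5 of 33 markers kept (15.2%, against 11.2% of all probe sets), and none fell. Of the 33, 22 had positive and 11 negative differences, with Cd8a, Cd5, Ms4a1, H2-Eb1 and Cd74 among the negative ones, and the part of these markers in the results was not tested.

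Complex III, which oxidises ubiquinol and reduces cytochrome c, was the complex with the most members called. Of its 8 genes 3 fell (37.5%), against 7.12% of all probe sets and 13.5% of the equally bright ones. A negative difference was found for 7 of the 8. The median was -0.47, beside -0.01 over all probe sets, and in 7 of 8 the 72 h array lay below all 4 arrays of 48 h, as it did for 33.8% of all probe sets. Set against the median over all probe sets, the complex III median differed by -0.46 here, and by between -0.57 and -0.33 under the other scalings, filters and sets of arrays. Under each of them 7 of the 8 genes lay below that median.

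Cyc1, whose product carries the haem that hands electrons to cytochrome c, lies at chr15:76343513-76346260 in GRCm38.p6. Its signal was 850 at 72 h, against 1650 and 1573 at 48 h with IL-21, beside 1391 and 1455 without IL-21. The 72 h array was clearly the lowest of the 5, and the log2 difference was -0.92 (SE 0.12, 1.90-fold lower, adjusted p = 0.0135). A second, dimmer probe set for Cyc1 did not show this. It gave 534 at 72 h, against 436 and 522 at 48 h with IL-21, a difference of 0.16 with an adjusted p of 0.646, and the mean over both probe sets differed by -0.38 with an adjusted p of 0.128.

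Uqcr10, a small subunit that packs against the catalytic core of complex III (chr11:4701968-4704344), had a signal of 519 at 72 h, against 822 and 924 at 48 h with IL-21, and 787 and 777 without it. It was 1.68-fold lower at 72 h, a log2 difference of -0.75 (SE 0.15, adjusted p = 0.0299). Uqcrq, a small membrane subunit (chr11:53427922-53430831), had 1054 at 72 h, against 1629 and 1629 at 48 h with IL-21, and 1650 and 1917 without it. It was 1.54-fold lower, a difference of -0.63 (SE 0.14, adjusted p = 0.0389). For both genes all 4 arrays of 48 h lay well above the 72 h array, and each was measured by 1 probe set.

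The rest of complex III, named after its values were seen, did not pass. Uqcrc2, a core protein read by a family-type probe set, had 323 at 72 h, against 501 and 566 at 48 h with IL-21, and 424 and 483 without it. Its difference of -0.72 (SE 0.18) was just outside the threshold with an adjusted p of 0.0526. Smaller negative differences were seen for the other core protein Uqcrc1 at -0.31 (SE 0.14), for Uqcr11 at -0.27 (SE 0.24) and for Uqcrb at -0.17 (SE 0.17). Uqcrh, the hinge protein that sits beside cytochrome c1, was the single gene of the complex with a positive difference. It had 1010 at 72 h, against 606 and 756 at 48 h with IL-21, and 700 and 732 without it. The difference of 0.58 (SE 0.18, adjusted p = 0.0942) was -0.10 with the deposited values, whose median over all probe sets was -0.58. Cycs, which takes electrons from this complex, had 47.9 at 72 h, against 72.8 and 64.2 at 48 h with IL-21, and 76.6 and 76.4 without it. The 72 h array was the lowest for Cycs as well, and the difference of -0.51 (SE 0.24, adjusted p = 0.231) did not pass.

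**Figure D2:**
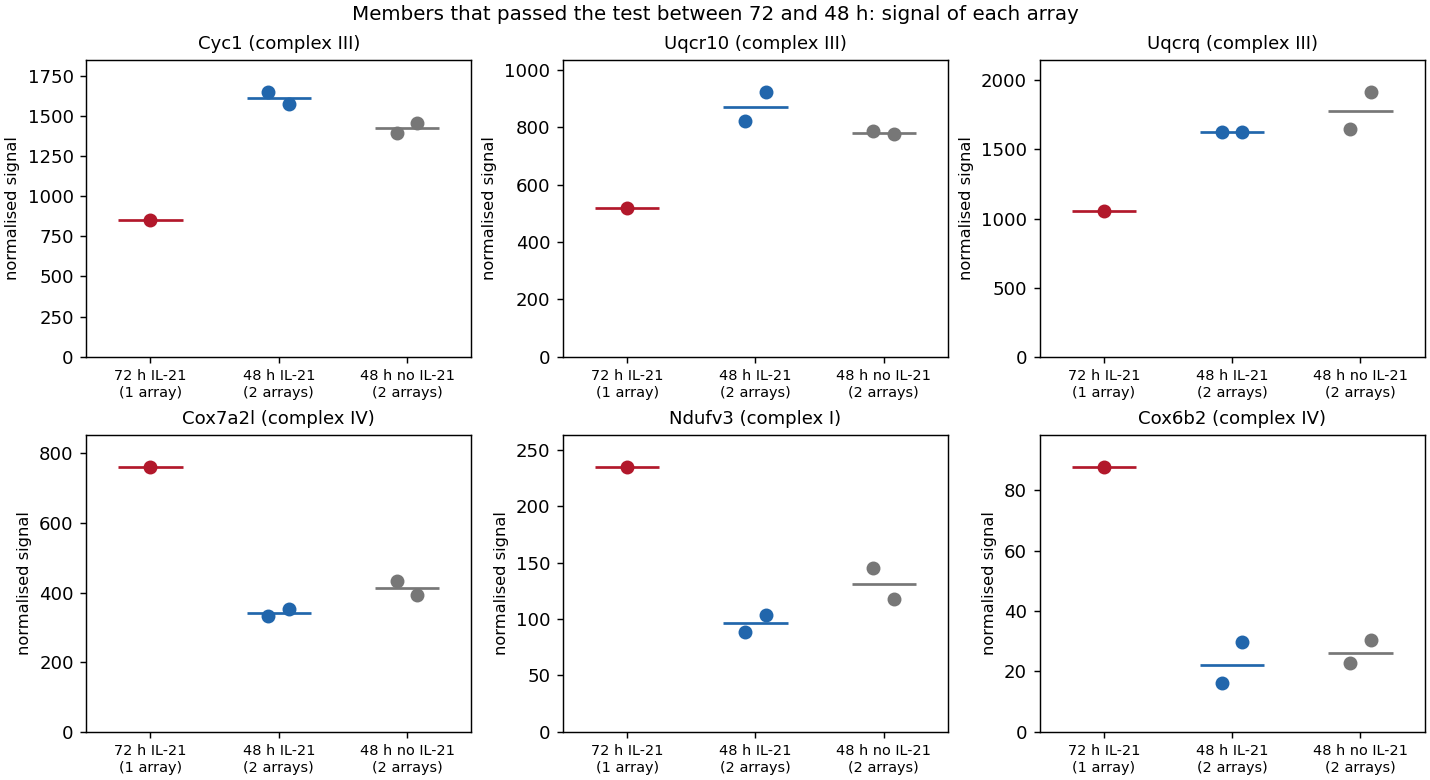
Normalised signal on each of the 5 arrays for the 6 genes that passed the test at 72 h. The 72 h IL-21 array comes first, then the 48 h arrays with IL-21 and the 48 h arrays without it. Cyc1, Uqcr10 and Uqcrq are lowest on the 72 h array, and Cox7a2l, Ndufv3 and Cox6b2 are highest on it.

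In complex IV 2 of 11 genes (18.2%) rose and none fell at 72 h, against 4.04% and 7.12% of all probe sets. The median difference was 0.28, with 9 positive and 2 negative, and it was -0.21 with the deposited values, whose median over all probe sets was -0.58. This median depended on the 48 h array: it was 0.54 without the first array with IL-21 and 0.11 without the second, and the 72 h array was higher than the first for 6 genes and lower for 5, but higher than the second for 10 and lower for 1. Cox7a2l (chr17:83501917-83514333), the supercomplex factor described above, had 761 at 72 h, against 332 and 352 at 48 h with IL-21, and 432 and 394 without it. It was 2.23-fold higher, a log2 difference of 1.16 (SE 0.16, adjusted p = 0.0151), and its 72 h signal stood far above every 48 h array. The difference lay between 0.45 and 1.19 over all alternatives.

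Cox6b2, the testis isoform of subunit VIb (chr7:4751792-4753094), had 87.8 at 72 h, against 16.3 and 29.8 at 48 h with IL-21, and 22.7 and 30.4 without it. The fold was 3.99, a log2 difference of 2.0 (SE 0.45, adjusted p = 0.0453). This value comes from a dim family-type probe set. Of the other Cox6b2 probe sets, both below the filter, one had 26.8 at 72 h against 2.60 and 12.4 at 48 h with IL-21, and the other had 4.15 against 10.4 and 16.7, in the opposite direction. Its widespread counterpart Cox6b1 differed by 0.28 (SE 0.38), with 45.2 at 72 h between the 48.4 and 28.6 at 48 h with IL-21.

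The other isoforms of complex IV did not pass. Cox8b differed by 0.40 (SE 0.28), Cox8c by 0.43 (SE 0.39, and by 0.87 or 0.00 with either 48 h IL-21 array left out), Cox7a2 by 0.16 (SE 0.14), Cox4i1, the widespread isoform of subunit IV, by 0.00 (SE 0.29) and Cox6a1 by -0.15 (SE 0.11). The family-type probe set of Cox4i1 was dim, with 37.1 at 72 h, and its second probe set differed by -0.22. Cox5b, a matrix-side subunit, had 840 at 72 h, against 665 and 426 at 48 h with IL-21, and 688 and 605 without it. The 72 h array was the highest, but the 48 h arrays with IL-21 were far apart. Cox6c and Cox7b, small membrane subunits, had 1157 and 343 at 72 h, within the range of the 48 h arrays.

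In complex I 1 of 27 genes (3.7%) rose and none fell, against 4.04% and 7.12% of all probe sets, and the median difference was 0.03. Ndufv3 (chr17:31520115-31531326), an accessory protein of the module that binds NADH, had 235 at 72 h, against 88.9 and 104 at 48 h with IL-21, and 145 and 118 without it. It was 2.45-fold higher, a difference of 1.29 (SE 0.24, adjusted p = 0.0266), and the 72 h signal was the highest of the 5 arrays. None of its partners in the NADH module passed the test. Ndufv1, which binds FMN and NADH, had 967 at 72 h, against 960 and 1097 at 48 h with IL-21. Ndufv2 had 544 at 72 h, against 448 and 543. Ndufs1 had 197 at 72 h, against 273 and 247, the lowest of the 5 arrays.

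Several accessory subunits of complex I came close to the threshold on the higher side. Ndufa13, also known as GRIM-19, had 277 at 72 h, against 162 and 170 at 48 h with IL-21, and 208 and 215 without it, a difference of 0.74 (SE 0.18, adjusted p = 0.0546). Ndufa6 and Ndufb11, named after their values were seen, differed by 0.91 (SE 0.26, adjusted p = 0.0832) and 0.57 (SE 0.18, adjusted p = 0.0983). On the lower side Ndufb6 and Ndufc1, also named afterwards, differed by -0.40 (SE 0.13, adjusted p = 0.117) and -0.45 (SE 0.16, adjusted p = 0.134). For both, the 72 h array lay below all 4 arrays of 48 h. At an unadjusted p under 0.05 in limma, 5 of 27 genes were higher and 2 lower, against 11.6% and 15.6% of all probe sets. Among genes with negative differences, Ndufab1, the mitochondrial acyl carrier protein, had 321 at 72 h, against 529 and 553 at 48 h with IL-21, and 394 and 683 without it. Its 48 h arrays without IL-21 were themselves far apart. Ndufs3 and Ndufb8, the genes with the smallest p for IL-21 in complex I at 48 h, had 427 and 529 at 72 h, which is close to their 48 h values with IL-21.

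No gene of complex II passed between the times, and their differences were small. At 72 h against 48 h with IL-21, Sdha had 62.0 against 62.0 and 65.6, Sdhb 608 against 702 and 711, Sdhc 464 against 399 and 485, and Sdhd 797 against 758 and 894. The log2 differences were -0.04 (SE 0.23), -0.22 (SE 0.14), 0.07 (SE 0.19) and -0.05 (SE 0.18) for the 4 genes in that order. Only for Sdhb did the 72 h array lie outside the range of the 48 h arrays, below all of them, and the adjusted p of 0.37 did not pass.

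In ATP synthase 0 of 13 genes passed at 72 h, with 7 positive and 6 negative differences and a median of 0.04. At an unadjusted p under 0.05, 0 were higher and 2 of 13 were lower, against 11.6% and 15.6% of all probe sets. Atp5md had 694 at 72 h, against 1005 and 1730 at 48 h with IL-21, and 906 and 803 without it, a difference of -0.93 (SE 0.31, adjusted p = 0.117). Its 48 h arrays with IL-21 were far apart from each other. Atp5a1, the alpha subunit of the catalytic head, had 1130 at 72 h, against 1484 and 1414 at 48 h with IL-21, and 1473 and 1360 without it. The 72 h array was below all of these, and the difference was -0.36 (SE 0.13, adjusted p = 0.13). Atp5c1, the gamma subunit that forms the rotating stalk, had 1210 at 72 h, against 1282 and 1153 at 48 h with IL-21. For the c-ring, Atp5g1 and Atp5g2 differed by 0.64 (SE 0.37) and 0.38 (SE 0.21), and the adjusted p-values of 0.339 and 0.304 did not pass. Atp5g1 was dim, with 31.5 at 72 h against 19.1 and 21.6 at 48 h with IL-21. Its second probe set, also dim, differed by -0.14.

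The 4 assembly factors, which help to build complexes I and II and are not part of them, had a median difference of -0.45, and none passed. Ndufaf4 had 16.9 at 72 h, against 21.8 and 40.4 at 48 h with IL-21, a difference of -0.81 (SE 0.45) that was -1.26 without the first of these arrays and -0.37 without the second. Ndufaf1 had 66.9, against 88.4 and 102, a difference of -0.51 (SE 0.24). The 72 h array lay below all 48 h arrays for 3 of the 4 genes, as it did for 33.8% of all probe sets, while Sdhaf2, which helps to insert flavin into Sdha, had 59.0 at 72 h, within the range of the 48 h arrays.

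**Figure D3:**
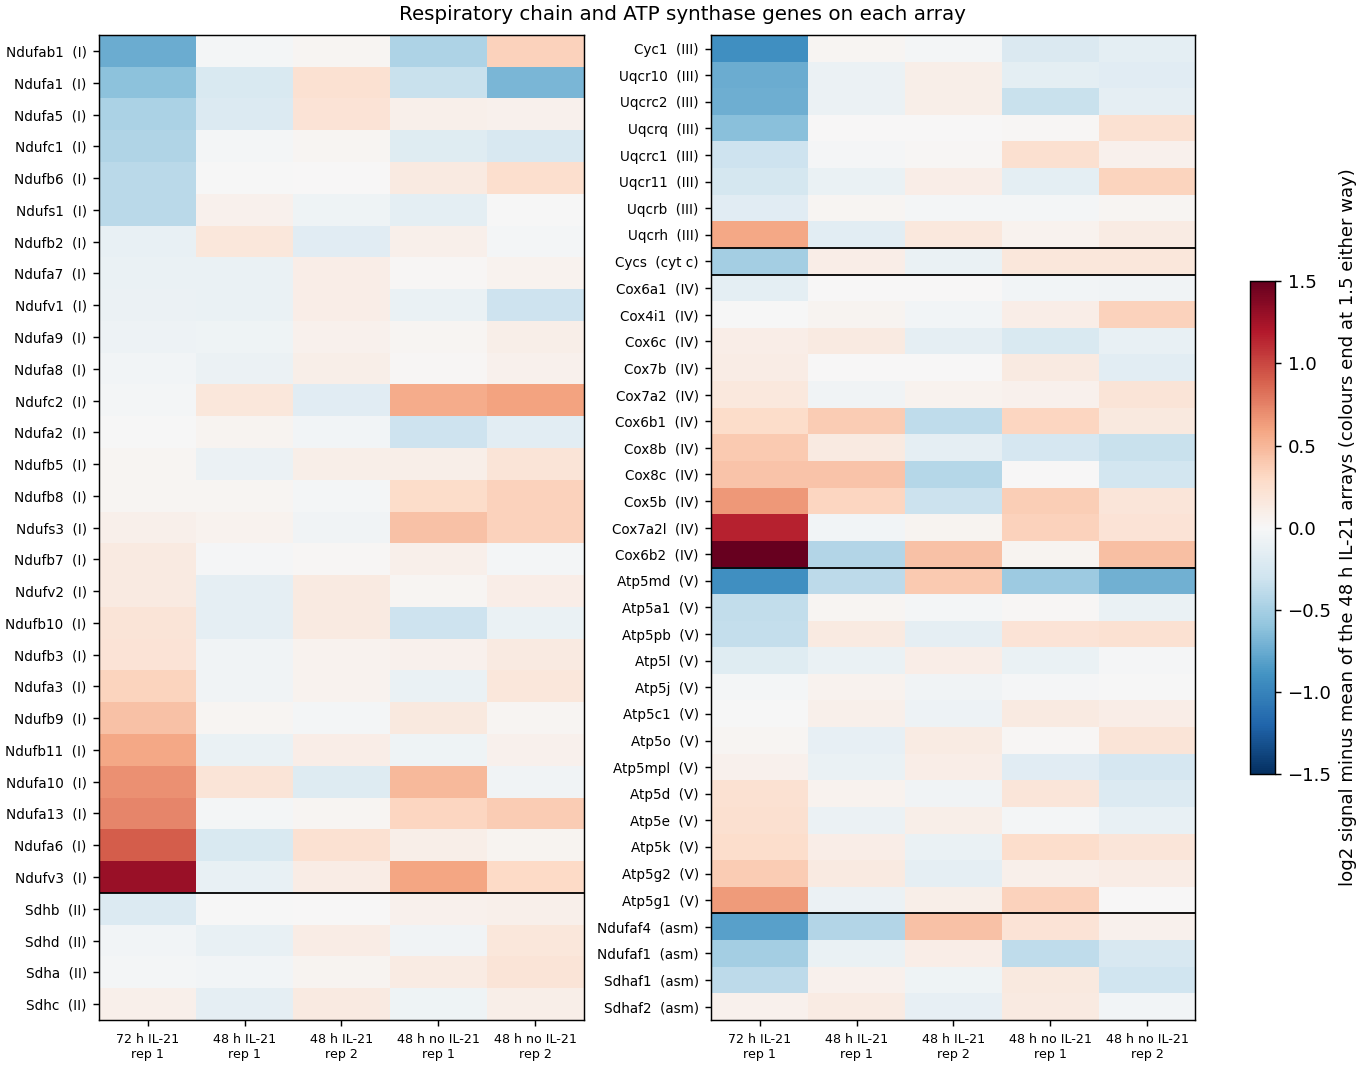
Log2 difference of each gene on each array from its mean on the 48 h arrays with IL-21, ordered by complex, with the 72 h array first; the colours end at 1.5 in either direction, which Cox6b2 exceeds at 72 h. Complex III is mostly lower on the 72 h array, and the 72 h array mixes higher and lower genes in complexes I, IV and V.

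Genes that feed, build or regulate the chain were counted from 5 lists. Together 5 of 71 genes (7.04%) passed at 72 h, fewer than the 11.2% of all probe sets, so the calls below say nothing particular to the lists. At 48 h no gene of these lists passed the test with IL-21. At 72 h none of 20 citrate cycle and pyruvate dehydrogenase genes passed, with a median of -0.09, and none of 11 carriers and channels passed, with a median of -0.03. Of 17 assembly and expression factors, with a median of -0.03, 1 fell. It was Lrpprc, which binds mitochondrial messenger RNAs and is needed for complex IV, at 51.3 at 72 h and a mean of 218 at 48 h with IL-21, a difference of -2.09 (SE 0.20, adjusted p = 0.00928).

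Among 11 genes of coenzyme Q synthesis and of other electron donors to it, 1 rose and 1 fell at 72 h, with a median of -0.15. Etfdh, which passes electrons from fatty acid oxidation to ubiquinone, rose by 1.59 (SE 0.36, adjusted p = 0.044). Gpd2, the mitochondrial glycerol phosphate dehydrogenase, read by a family-type probe set, had a difference of -1.05 (SE 0.22, adjusted p = 0.0364). Among 12 regulators of mitochondrial biogenesis 2 fell, with a median of -0.31. They were Myc at -1.17 (SE 0.23, adjusted p = 0.0308) and Pprc1, a coactivator related to PGC-1, at -1.43 (SE 0.29, adjusted p = 0.0347). Each of the 5 calls was lost when either 48 h IL-21 array was left out.

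Promoters of these genes are known for sites of NRF1 and of ETS factors such as GABP, which regulate many nuclear genes of the chain. Windows from 250 bases before to 50 bases after the start of the gene, from RefSeq on GRCm38.p6, were found for 61 of the 75 genes. The NRF1 motif, GCGCA followed by any base and GCGC, was present on either strand in 12 of the 61 (19.7%), against 7.17% of 17492 protein-coding genes. The ETS motif CCGGAAG was present in 18 (29.5%), against 12.9%, and the E-box CACGTG, a site of MYC, in 5 (8.2%), against 8.91%. The windows of Uqcr10, Ndufv3, Cox7a2l and Cox6b2, the called genes that had one, held none of these motifs. The same was true of genes that did not pass, among them Ndufa10, Cox5b, Cox7b and Cycs. A window without a match was thus not particular to the called genes. Sdha, which passed in neither comparison, held 3 NRF1 matches and Sdhd held 1 match each of NRF1 and ETS. Matches of different motifs did not overlap, and a match is not a measured site.

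The 250 bases before the start are shown for 3 of the genes that passed the test and for both of these complex II genes. They serve as examples without and with matches, and motif matches are in capitals. The positions are chr11:4704345-4704594 for Uqcr10, chr17:31519865-31520114 for Ndufv3, chr17:83514334-83514583 for Cox7a2l, chr13:74350241-74350490 for Sdha and chr9:50603850-50604099 for Sdhd. Ndufv3 is on the plus strand and the others on the minus strand, and each is written in the direction of its gene.
Uqcr10: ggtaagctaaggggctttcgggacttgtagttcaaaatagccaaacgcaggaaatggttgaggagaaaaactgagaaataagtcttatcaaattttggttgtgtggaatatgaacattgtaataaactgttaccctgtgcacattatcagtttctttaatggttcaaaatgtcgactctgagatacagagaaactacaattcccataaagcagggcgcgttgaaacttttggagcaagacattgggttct
Ndufv3: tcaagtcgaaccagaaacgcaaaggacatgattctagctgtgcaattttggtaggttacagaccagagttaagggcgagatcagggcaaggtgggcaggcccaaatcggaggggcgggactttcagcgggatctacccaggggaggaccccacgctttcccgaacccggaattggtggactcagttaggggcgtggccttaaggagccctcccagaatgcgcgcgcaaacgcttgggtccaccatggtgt
Cox7a2l: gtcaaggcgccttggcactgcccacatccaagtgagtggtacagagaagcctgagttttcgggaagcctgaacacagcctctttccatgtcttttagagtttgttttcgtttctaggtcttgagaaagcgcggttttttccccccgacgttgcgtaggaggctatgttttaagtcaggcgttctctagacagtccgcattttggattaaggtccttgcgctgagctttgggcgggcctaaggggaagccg
Sdha: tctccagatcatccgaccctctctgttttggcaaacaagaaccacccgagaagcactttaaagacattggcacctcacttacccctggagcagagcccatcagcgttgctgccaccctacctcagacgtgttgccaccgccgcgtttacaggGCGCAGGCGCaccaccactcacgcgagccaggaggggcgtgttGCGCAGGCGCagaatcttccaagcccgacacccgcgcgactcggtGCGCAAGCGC
Sdhd: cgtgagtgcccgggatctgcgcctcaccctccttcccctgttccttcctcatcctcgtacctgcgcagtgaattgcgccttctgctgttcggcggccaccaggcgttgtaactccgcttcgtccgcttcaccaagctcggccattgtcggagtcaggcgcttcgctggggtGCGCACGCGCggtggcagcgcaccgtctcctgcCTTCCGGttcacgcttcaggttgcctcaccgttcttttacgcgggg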

How the data were processed

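RNA of 5 samples was measured on single-colour Affymetrix arrays. The authors deposited 1 linear intensity per probe set and array, made with MAS5 according to the submitters' processing notes, whose version and scaling target were not given in the sources used here. Array totals differ, so the deposited intensity values carry each array's overall brightness. Leaving out controls, 12422 probe sets remained, and 10833 of them named 1 gene (10817 matched through Entrez to the GRCm38.p6 gene table), 396 had several and 1193 none.

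Before log2, 1.53 signal units (the 10th percentile) were added, arrays were quantile-normalised (in place of the deposited scaling), and the 7453 probe sets with a mean above the 40th percentile were kept. Signals given are 2 to the power of the normalised log2 value, offset included, so folds of dim genes are understated. Summed marker signals are the exception, with the offset taken off each marker. A limma model (version 3.58.1, R 4.3.3) of 3 group means over 5 arrays left 2 residual degrees of freedom and used a variance trend. Tests were two-sided, and p-values were adjusted by Benjamini-Hochberg across the 7453 probe sets, with a threshold of 0.05. The lone 72 h array is assumed to vary like the others. The procedure was tested on simulated data in which each probe set had the same variance on every array and arrays did not differ in brightness. That test thus cannot decide whether the 72 h array varies like the others, or between scalings.

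The members, gene lists and tests were chosen with earlier results of these data known. Log2 differences are given, per comparison and complex, for members that passed (at most 5 by smallest p, filled up to 2), always for Sdha to Sdhd, Cycs, Cyc1, the Atp5g genes and the Cox4, Cox6a, Cox6b, Cox7a and Cox8 isoforms, and for pathway genes up to 3 per list. Members outside this rule are given by their signals or were named after their values were seen. Alternatives were other offsets, scalings and filters, no variance trend, gene means, a replicate block and leaving out each array. The number of arrays limits precision.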

Additional observations from a re-analysis of the deposited data

How the results depend on the processing

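At 48 h the count of subunit genes called for IL-21 stayed 0 except with the deposited values, where 14 rose (20.6%, against 9.34% of all probe sets, 696 higher and 0 lower) and the median member difference was 0.54 as that of all probe sets was 0.57; scaling on the hybridisation controls gave a median of -0.22. At 72 h the count of 6 became 32 with the deposited values (47.1%, against 28.6% of all probe sets; median difference -0.65), 2 with arrays centred on their medians (median -0.24), 3 with scaling on the hybridisation controls, 0 without a variance trend and 0 to 2 when 1 array was left out. Without either IL-21-free array 2 passed, Cox7a2l and Cyc1. Cox6b2 and Uqcrq were not among the members that passed without a filter, nor Cox6b2 and Cyc1 with gene means. With the stricter filter Cox6b2 was not among them, while Ndufa13 and Uqcrc2 were. Over all probe sets, 36.2% of calls at 72 h were higher, against 18.1% with centred medians, 4.75% with the deposited values and 49.5% on the hybridisation controls, and the medians of all probe sets under these 3 were -0.17, -0.58 and 0.12. The calls over all probe sets numbered 832, against 674 with centred medians, 2128 with the deposited values, 646 on the hybridisation controls, 1860 with the block and 591 without a filter, and 465 and 430 without the first and the second IL-21-free array.

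With the replicate number as a block, 12 members passed at 72 h, 7 higher and 5 lower, and 0 at 48 h. The labels give the 48 h groups the same numbers but do not say that these pair the samples, and the differences between replicates of the 2 groups correlated at 0.361 over probe sets.

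Some differences that had not passed the test changed sign. Ndufb11 and Uqcrh were among them, although both passed with the block. With the deposited values at 48 h this held for Atp5g1 (0.35), Atp5g2 (0.46), Cox4i1 (0.35), Cox6b1 (0.31), Cox6b2 (0.29), Cox7a2 (0.48), Cox7a2l (0.33), Cycs (0.40), Ndufb8 (0.30), Ndufs3 (0.21), Sdha (0.43), Sdhb (0.55), Sdhc (0.58) and Sdhd (0.54). At 72 h it held for Atp5g2 (-0.35), Cox6b1 (-0.21), Cox7a2 (-0.55), Cox8b (-0.15), Cox8c (-0.20), Ndufb11 (-0.14), Sdhc (-0.63) and Uqcrh (-0.10). With centred medians it held at 48 h for Sdhb (0.02), Sdhc (0.05) and Sdhd (0.01), and at 72 h for Cox7a2 (-0.14) and Sdhc (-0.22). On the hybridisation controls it held at 48 h for Cox6a1 (-0.11), Cox8c (-0.06) and Sdhaf1 (-0.12), and at 72 h for Sdha (0.09). With gene means it held at 48 h for Atp5g1 (0.03) and Cox4i1 (0.12), and with the block at 72 h for Sdhd (0.07).

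The complex IV median at 48 h (-0.13) became 0.48 with the deposited values, 0.02 without a filter, 0.04 with the stricter filter and 0.01 with gene means, and at 72 h (0.28) it was 0.14 with the block. The medians of complexes I, II, III and V and of the assembly factors at 48 h, and of complexes I, II and V at 72 h, all within 0.06 of 0, also changed sign under some settings.

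With 1 array left out the 48 h differences ranged from -0.14 to 0.29 for Sdhaf1, -0.16 to 0.13 for Sdhc, -0.18 to 0.06 for Sdhd, -0.69 to 0.18 for Cox6b2, -0.30 to 0.56 for Cox8c, -0.23 to 0.04 for Atp5g2 and -0.63 to 0.14 for Cox6b1. The 72 h differences ranged from -0.07 to 0.21 for Sdhc, -0.10 to 0.66 for Cox6b1 and -0.17 to 0.07 for Sdhd. Apart from the scalings, whose medians of all probe sets moved as given, and the lost residual degree of freedom when an array was left out, the cause was not tested.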
